A study of Bos taurus with 8 samples.

Results

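The miRNAs bta-miR-143 and bta-miR-145, which bovine cells cut from neighbouring hairpins of a single primary transcript, were followed in the rumen fluid of cows on a forage and on a high-grain (HG) diet. They were taken by name, as the rows called bta-miR-143 and bta-miR-145 in the read count table of each library. These are 2 of the 565 miRNA entries listed over all libraries, and both are among the 377 entries that reached at least 10 reads in at least 1 library, of which 268 are bovine entries and the others human homologues. Some entries repeat the reads of another under a second name, so the 377 hold 283 distinct read profiles. Counts, percentages and ranks over entries therefore count such reads more than once. Rumen fluid came from the ventral sac of 4 non-lactating Holstein cows with a rumen cannula, sampled 4 h after the morning feeding. The forage libraries were collected on day 7 of a diet of grass silage, corn silage and hay with 0% concentrate, and the HG libraries on day 1 of a diet with 65% concentrate in dry matter, which followed a stepwise change of feed. Each sample gave 1 small RNA library, so there were 4 libraries per diet, and the same cows stood on both diets without a group that stayed on forage. Diet and time of sampling therefore cannot be told apart.

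MiR-143 and miR-145 are best known from smooth muscle. Serum response factor and its cofactor myocardin drive their common transcript there, and both miRNAs favour the contractile state of the muscle cell, in part by repressing KLF4, KLF5 and ELK1. In the wall of the gut they are found mainly in mesenchymal cells, which are smooth muscle cells, fibroblasts and pericytes, and are low in epithelial cells and blood cells. Rumen fluid is no tissue, and its host RNA can come from shed cells, blood, saliva or vesicles. In such a bulk sample more cells of a type cannot be told apart from more RNA per cell.

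In the bovine genome build UMD3.1 used for the files, bta-miR-143 lies on the plus strand at chr7:62809359-62809380, which is 22 bases. The 23 bases of bta-miR-145 lie downstream on the same strand at chr7:62810748-62810770, with 1367 bases between the mature miRNAs. The opposite arm of the miR-145 hairpin, counted under the human entry hsa-miR-145-3p, lies 15 bases further on at chr7:62810786-62810807. In the gene table of the newer assembly ARS-UCD2.0, used here for names and neighbours alone, MIR143 and MIR145 both lie inside the long non-coding RNA gene LOC132345768, with IL17B as the protein-coding gene before them and CSNK1A1 as the one after. The other arm of the miR-143 hairpin was not analysed here.

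The libraries held 1407364 to 4972757 reads, of which 300116 to 522804 were miRNA reads. Shares are given per miRNA read of the same library, because the part of all reads that were miRNA reads ranged from 6.67% to 29.3%. HG replicate 2 stood apart from the other libraries: of the 377 entries, 134 (35.5%) were higher in it than in each of the other 7 libraries and 115 (30.5%) were lower, in scaled counts (CPM) normalised by edgeR's trimmed mean of M-values (TMM). The abundances, ratios and diet changes below are therefore also given without it.

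Bta-miR-143 was among the most abundant miRNAs of rumen fluid, with 107547 reads in the forage libraries and 92122 in the HG libraries. In the forage libraries it took 5.94%, 6.03%, 6.01% and 5.81% of the miRNA reads in replicates 1 to 4. In the HG libraries it took 5.93%, 8.06%, 5.83% and 6.30%. HG replicates 1 and 3 lay inside the forage range, and HG replicates 2 and 4 lay above it. The mean was 5.95% ± 0.0998 (SD, n = 4) on forage and 6.02% ± 0.250 (SD, n = 3) on HG without replicate 2. With HG replicate 2 included, the HG mean was 6.53% ± 1.04 (SD, n = 4). Counting error was small at this depth. The 95% Wilson interval was 7.97% to 8.15% in HG replicate 2 and 6.23% to 6.38% in HG replicate 4, and the upper bounds of the other 6 libraries did not exceed 6.10%. Such intervals hold the error of counting alone, because reads copied by PCR are not separate molecules.

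Bta-miR-143 ranked 3 among the bovine entries in each of the 8 libraries, below bta-miR-451 and bta-miR-21-5p. Bta-miR-451, a miRNA of red blood cells, took 12.6% to 17.3% of the miRNA reads, and bta-miR-21-5p, which many cell types express, took 11.6% to 15.4%. The next bovine entries were bta-miR-26a with 4.72% to 4.88% and bta-let-7f with 3.13% to 3.40%, so bta-miR-143 exceeded both in 8 of 8 libraries. Its own position between these pairs was thus the same in each library, HG replicate 2 included, although bta-miR-21-5p exceeded bta-miR-451 in that library. A small RNA read covers the whole miRNA, so no length scaling was applied, and differences in how well each miRNA is ligated were not tested.

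Bta-miR-145 was far less abundant, with 2981 reads in the forage libraries and 2739 in the HG libraries. In the forage libraries its share of the miRNA reads was 0.169%, 0.164%, 0.174% and 0.148% in replicates 1 to 4. In the HG libraries it was 0.164%, 0.304%, 0.157% and 0.157%. HG replicate 2 again held the highest value, while the other HG libraries lay inside the range of the forage libraries. The mean was 0.164% ± 0.0114 (SD, n = 4) on forage and 0.196% ± 0.0725 (SD, n = 4) on HG, or 0.159% ± 0.00420 (SD, n = 3) on HG without replicate 2. The 95% Wilson interval of HG replicate 2 was 0.286% to 0.324%, and the highest upper bound of any other library was 0.187%.

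**Figure D1:**
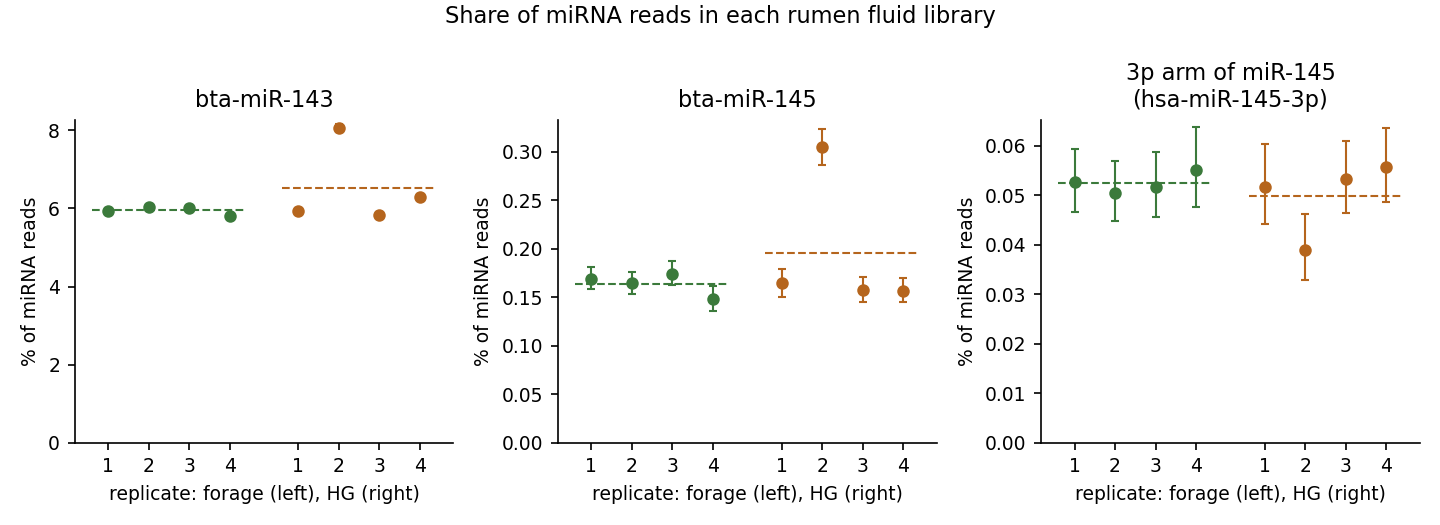
Share of miRNA reads (%) of bta-miR-143, of bta-miR-145 and of the 3p arm of miR-145 in the 4 forage and 4 HG libraries, with 95% Wilson intervals as bars and the mean of each diet as a dashed line. HG replicate 2 is the highest library for both mature miRNAs (8.06% and 0.304%) and the lowest for the 3p arm (0.0390%), and the other 7 libraries overlap between diets.

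By total reads bta-miR-145 ranked 70 among the bovine entries, and by library it ranked from 69 to 76 outside HG replicate 2 and 48 in that library. Over the 7 libraries other than HG replicate 2, its mean share was 0.162% ± 0.00876 (SD, n = 7). Bta-miR-185, at rank 68, lay above it in each of those 7, at 0.186% ± 0.00615 (SD, n = 7), and the ranges of 0.178% to 0.196% and 0.148% to 0.174% did not overlap. In HG replicate 2 this order was turned. The ranges of the other neighbours overlapped with that of bta-miR-145, and their differences from it were not tested. Bta-miR-181a, at rank 69, had 0.177% ± 0.0111 (SD, n = 7) and lay above it in 6 of the 7. Bta-miR-31, an epithelial miRNA at rank 71, had 0.158% ± 0.00670 (SD, n = 7), and bta-miR-141, also epithelial, had 0.154% ± 0.0136 (SD, n = 7), and each lay below bta-miR-145 in 5 of the 7. With HG replicate 2 the mean of bta-miR-145 was 0.180% ± 0.0510 (SD, n = 8), next to 0.183% for bta-miR-185, 0.181% for bta-miR-181a, 0.179% for bta-miR-31 and 0.167% for bta-miR-141.

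The reads of bta-miR-145 and of the human entry hsa-miR-145-5p were the same in 8 of 8 libraries, since both entries describe the same place of the genome. In the authors' second count, in which a read is divided among the entries it maps to, bta-miR-145 therefore fell to 2860 reads in all. Bta-miR-143 shared no reads with another listed entry and kept its 199669. On that count bta-miR-143 ranked 2 and bta-miR-145 ranked 75. The undivided reads are used below, because the division of bta-miR-145 comes from a duplicate name of 1 locus.

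In reads relative to all reads of the library, bta-miR-143 had an RPM (reads scaled to the size of the library) of 17402, 9893, 10431 and 3877 in forage replicates 1 to 4 and 5751, 6950, 16176 and 5417 in HG replicates 1 to 4. The forage libraries differed from each other 4.49-fold on this scale, and HG replicate 2 lay within the range of the other 7. Bta-miR-145 spread from 98.7 to 496 RPM on forage and from 135 to 437 RPM on HG, with 262 RPM in HG replicate 2. The higher level of both miRNAs in HG replicate 2 was thus a higher share of the miRNA reads and not of all reads.

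Whether the change of feed altered these miRNAs was examined by the quasi-likelihood test of edgeR, two-sided, with the replicate number as a block and Benjamini-Hochberg adjustment over the 377 entries. The same 4 cows were sampled on both diets and libraries of the same number were taken as a pair from 1 cow, but the labels do not state that a number is a cow. Of the entries, 0 (0%) passed an adjusted p of 0.05, 9 had an unadjusted p under 0.05, and DESeq2 also called 0. Without the libraries of pair 2, edgeR called 2 entries, neither of them a member of the cluster. CPM is taken over the summed reads of the 377 entries, where a read that fits more than 1 entry counts more than once. It is therefore not a share of the miRNA reads. In TMM-scaled CPM, bta-miR-143 stood at 38187, 39429, 39079 and 37652 in forage replicates 1 to 4 and at 38412, 60283, 37581 and 41071 in HG replicates 1 to 4. The groups overlapped, and HG replicate 3 held the lowest of all 8 values. Its log2 fold change from forage to HG was 0.17 (standard error 0.11; edgeR adjusted p = 0.788). Without the libraries of pair 2, the estimate was 0.03 (standard error 0.03; edgeR adjusted p = 0.873), and without the pairing it was 0.20 (edgeR adjusted p = 0.678).

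Bta-miR-145 stood at 1088, 1074, 1134 and 959 CPM in forage replicates 1 to 4 and at 1063, 2277, 1015 and 1021 CPM in HG replicates 1 to 4. All HG libraries but replicate 2 lay inside the forage range. The log2 fold change was 0.25 (standard error 0.22; edgeR adjusted p = 0.788), and without the libraries of pair 2 it was −0.04 (standard error 0.06; edgeR adjusted p = 0.969). Without the pairing it was 0.33 (edgeR adjusted p = 0.688), and −0.0501 when HG replicate 2 was also left out. The direction of the estimate thus rested on 1 library. The median log2 fold change of all tested entries was 0.03.

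The changes within pairs depend on that numbering. For bta-miR-143 the log2 change from forage to HG was 0.01, 0.61, −0.06 and 0.13 in pairs 1 to 4 (TMM-scaled CPM), with a mean of 0.17 ± 0.30 (SD, n = 4). For bta-miR-145 it was −0.03, 1.08, −0.16 and 0.09, with a mean of 0.25 ± 0.57 (SD, n = 4). Only pair 2 moved by more than 0.2 for either miRNA. Bta-miR-143 was higher on HG in 3 of 4 pairs and bta-miR-145 in 2 of 4. Neither miRNA is among the entries that were higher on HG in all 4 pairs, which made up 8.49% of the tested entries, or lower in all 4, which made up 6.9%.

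**Figure D2:**
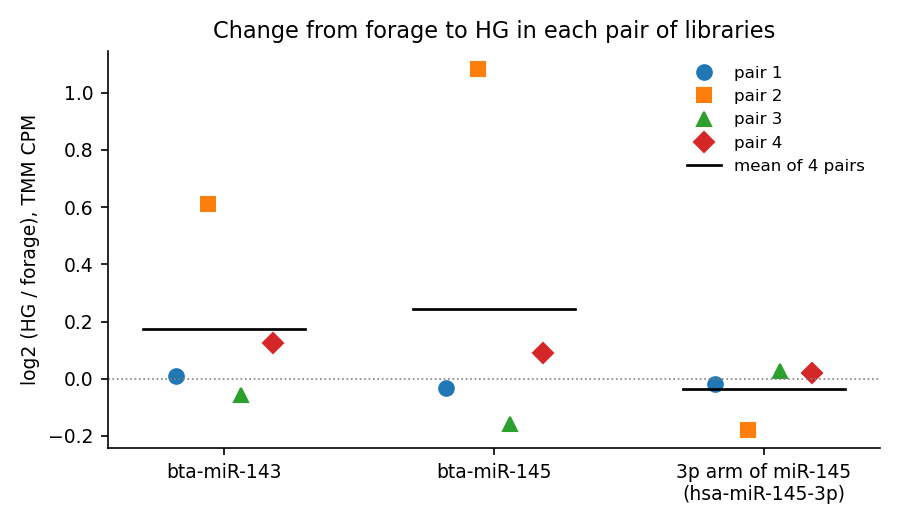
Log2 ratio of HG to forage (TMM-scaled CPM) in pairs 1 to 4 for bta-miR-143, bta-miR-145 and the 3p arm of miR-145, with the mean of the 4 pairs as a line. Pair 2 stands apart at 0.61 and 1.08 for the mature miRNAs and at −0.18 for the 3p arm, and the other pairs lie between −0.16 and 0.13.

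The ratio of bta-miR-143 to bta-miR-145 within a library needs no scaling and asks whether both miRNAs moved together. There were 35.1, 36.7, 34.5 and 39.3 reads of bta-miR-143 per read of bta-miR-145 in forage replicates 1 to 4. In HG replicates 1 to 4 there were 36.1, 26.5, 37.0 and 40.2. The ratio lay in a narrow range in 7 libraries, at 37.0 ± 2.10 (SD, n = 7), and was lowest in HG replicate 2, where the 95% Wilson interval was 24.9 to 28.2 and the lowest bound of any other library was 32.1. In HG replicate 2 bta-miR-145 was thus higher relative to its cluster partner than in the other 7 libraries. The ratio does not show whether either miRNA was itself higher.

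Between the diets the ratio did not differ beyond the spread between pairs. It was 36.4 ± 2.14 (SD, n = 4) on forage and 35.0 ± 5.92 (SD, n = 4) on HG. The mean log2 difference within pairs was −0.07 ± 0.27 (SD, n = 4; exact permutation test, two-sided, p = 1), in a design whose smallest possible p is 0.125. The ratio was higher on HG in 3 of 4 pairs, by a log2 difference of 0.04 in pair 1, 0.10 in pair 3 and 0.04 in pair 4, and lower by −0.47 in pair 2. Without pair 2 the mean was 0.06 ± 0.04 (SD, n = 3), opposite in sign to that of all pairs. The same ratio in divided reads was 53.0 to 80.5, because that count divides the reads of bta-miR-145 alone, and its diet difference was the same.

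The hairpin of miR-145 also gives a 3p arm, which is usually the minor product and here was counted as hsa-miR-145-3p. It had 260, 264, 236 and 183 reads in forage replicates 1 to 4 and 155, 131, 208 and 216 reads in HG replicates 1 to 4. Its share of miRNA reads was 0.0525% ± 0.00196 (SD, n = 4) on forage and 0.0499% ± 0.00745 (SD, n = 4) on HG, or 0.0535% ± 0.00202 (SD, n = 3) on HG without replicate 2, which lies above the forage mean. HG replicate 2 had the lowest share, 0.0390% with a 95% Wilson interval of 0.0328% to 0.0462%, and the other 7 libraries held 0.0505% to 0.0557%. The lowest bound among those 7 was 0.0441%, so the intervals of single libraries touched. The log2 fold change with diet was −0.04 (standard error 0.08; edgeR adjusted p = 0.889), and without pair 2 it was 0.01 (standard error 0.08; edgeR adjusted p = 0.988), so its sign rested on HG replicate 2.

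Relative to miRNA reads, HG replicate 2 thus held the highest share of bta-miR-145 and the lowest of its 3p arm. Relative to all reads, bta-miR-145 was at 262 RPM there, next to a mean of 271 ± 153 (SD, n = 7) in the other libraries, and the 3p arm at 33.6 RPM, the lowest library, next to 87.1 ± 47.7 (SD, n = 7). The ratio of the arms does not depend on the scale. There were 3.22, 3.25, 3.37 and 2.68 reads of bta-miR-145 per read of the 3p arm in forage replicates 1 to 4. In HG replicates 1 to 4 there were 3.18, 7.81, 2.96 and 2.81. The 95% Wilson interval in HG replicate 2 was 6.51 to 9.36, and the highest bound of any other library was 3.89. The ratio was 3.07 ± 0.253 (SD, n = 7) in the other libraries. The mean log2 difference between the diets was 0.28 ± 0.66 (SD, n = 4; exact permutation test, two-sided, p = 0.75). It was higher on HG in 2 of 4 pairs, with 1.26 in pair 2 and −0.02, −0.19 and 0.07 in pairs 1, 3 and 4, and without pair 2 the mean was −0.04 ± 0.13 (SD, n = 3).

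**Figure D3:**
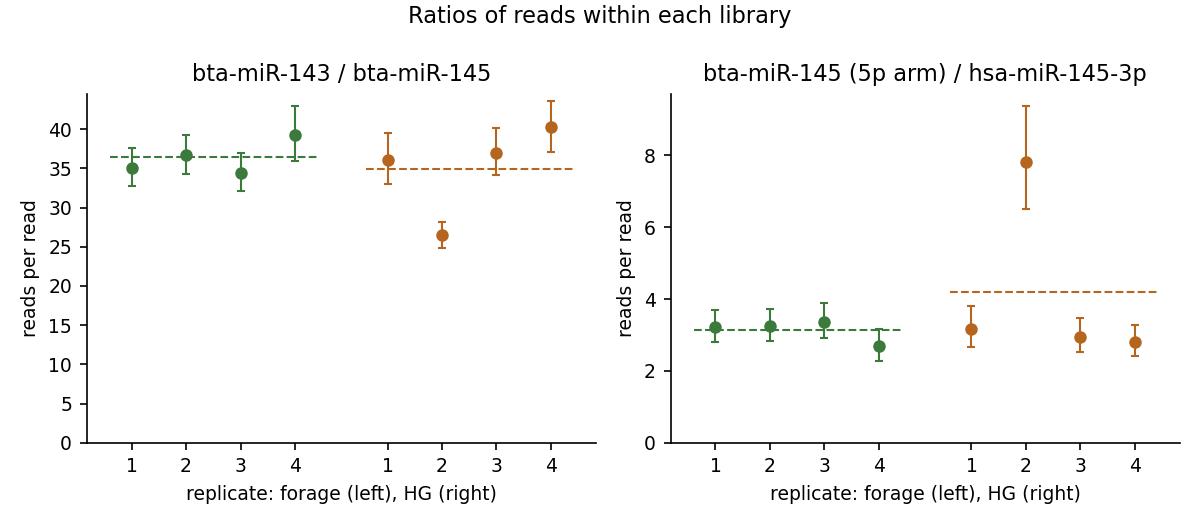
Reads of bta-miR-143 per read of bta-miR-145, and reads of bta-miR-145 per read of its 3p arm, in the 4 forage and 4 HG libraries, with 95% Wilson intervals as bars and the mean of each diet as a dashed line. HG replicate 2 holds the lowest value of the first ratio (26.5) and the highest of the second (7.81), and the other 7 libraries spread over 34.5 to 40.2 and 2.68 to 3.37.

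The tables also count the distinct read sequences behind each entry, which include shorter, longer and mismatched forms of the miRNA. Bta-miR-143 was represented by 195, 200, 200 and 169 distinct sequences in forage replicates 1 to 4 and by 151, 162, 175 and 187 in HG replicates 1 to 4. It ranked 3 of the 268 bovine entries by this number, as it did by reads. Bta-miR-145 was represented by 26, 21, 21 and 18 distinct sequences on forage and by 16, 14, 18 and 18 on HG, and ranked 77. Over all libraries it had 37.6 reads per distinct sequence, and the 4 bovine entries nearest to it in reads had 37.1 (bta-miR-31), 37.4 (bta-miR-181a), 29.96 (bta-miR-185) and 34.4 (bta-miR-221).

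HG replicate 2 held the most reads of bta-miR-145, 1023, and the fewest distinct sequences, 14. It had 73.1 reads per distinct sequence there, whereas the other 7 libraries had 27.3 to 40.9. For bta-miR-143 the values were 167 in HG replicate 2 and 114 to 158 in the others. Of the 186 entries with a mean of at least 100 reads per library, 91 (48.9%) had fewer distinct sequences in HG replicate 2 than in each other library, so bta-miR-145 shared this with many entries, while bta-miR-143 was not among them.

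In TMM-scaled CPM, bta-miR-143 was 1.55-fold and bta-miR-145 2.17-fold as high in HG replicate 2 as the mean of the other 7 libraries, which was 38773 ± 1222 CPM (SD, n = 7) for bta-miR-143 and 1051 ± 57.1 CPM (SD, n = 7) for bta-miR-145. These ratios compare 1 library with 7 and have no test. Among the 186 entries with a mean of at least 100 reads, bta-miR-145 ranked 6 and bta-miR-143 27 by the log2 difference of HG replicate 2 from the mean of the others, which was 1.12 and 0.64, and the 3p arm of miR-145 ranked 158 with −0.23. The 186 entries include human names with the same reads as a bovine entry, hsa-miR-145-5p among them. Some reads are thus ranked more than once, and bta-miR-143 would stand higher if each were ranked once.

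Other miRNAs used as markers of cell types were counted in the same way, from lists that hold neither bta-miR-143 nor bta-miR-145. Of these lists, 0 members were called for the diet, next to 0% of all tested entries. Counts below are given in TMM-scaled CPM, where 35.5% of all tested entries were higher in HG replicate 2 than in each other library and 30.5% were lower, and then in shares of miRNA reads, where 26.8% were higher and 49.3% lower. Bta-miR-143 and bta-miR-145 were higher on both scales, and the 3p arm of miR-145 was lower on both.

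Of 9 other mesenchymal entries, all detected, 6 were higher in HG replicate 2 than in each other library and 0 lower in CPM, and 5 were higher and 2 lower in shares. They ranged from 0.949-fold to 2.88-fold the mean of the others in CPM, with a median log2 difference of 0.31. The 4 most read were bta-miR-199a-3p at 1.22-fold, bta-miR-125b at 0.949-fold, bta-miR-99a-5p at 1.24-fold and bta-miR-100 at 0.949-fold. In shares, bta-miR-125b (0.285%) and bta-miR-100 (0.134%) were lower than in each other library, and bta-miR-199a-3p (0.508%) lay inside the range of the others (0.453% to 0.521%). The mesenchymal entries thus differed among themselves in direction on this scale. Their summed share was 1.47% to 1.59% on forage, 1.46% to 1.58% in the other HG libraries and 1.65% in HG replicate 2.

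Both endothelial entries, bta-miR-126-3p and bta-miR-126-5p, were higher in HG replicate 2 than in each other library on both scales, at 1.71-fold and 1.80-fold the mean in CPM. Their summed share was 0.497% to 0.516% on forage, 0.491% to 0.549% in the other HG libraries and 0.767% in HG replicate 2. Of the 7 epithelial entries detected of 8, 6 were higher and 0 lower in CPM, and 5 were higher and 1 lower in shares. The 4 most read were bta-miR-205, a miRNA of squamous epithelium, at 1.70-fold, bta-miR-200c at 1.20-fold, bta-miR-200a at 1.69-fold and bta-miR-200b at 1.04-fold. In shares, bta-miR-200b (0.189%) was lower than in each other library (0.201% to 0.219%) and bta-miR-200c (0.380%) lay inside their range (0.348% to 0.385%). The summed share of the epithelial entries was 2.24% to 2.26% on forage, 2.21% to 2.28% in the other HG libraries and 3.12% in HG replicate 2.

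All 3 erythrocyte entries, bta-miR-451, bta-miR-144 and bta-miR-486, were lower in HG replicate 2 than in each other library on both scales. Their summed share was 14.98% there, next to 20.2% to 20.6% on forage and 19.8% to 20.2% in the other HG libraries. Of 6 leukocyte entries, 4 were lower and 2 higher on both scales, with a summed share of 1.87% there and 2.26% to 2.33% elsewhere. Of 7 entries for striated muscle, 3 were detected. Bta-miR-1 and bta-miR-133a were lower in HG replicate 2 than in each other library, at 0.803-fold and 0.447-fold, and bta-miR-499 was higher at 1.54-fold. As a share is relative, a fall of 1 group raises the others. The part of these cell type markers in the levels of bta-miR-143 and bta-miR-145 was not tested.

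**Figure D4:**
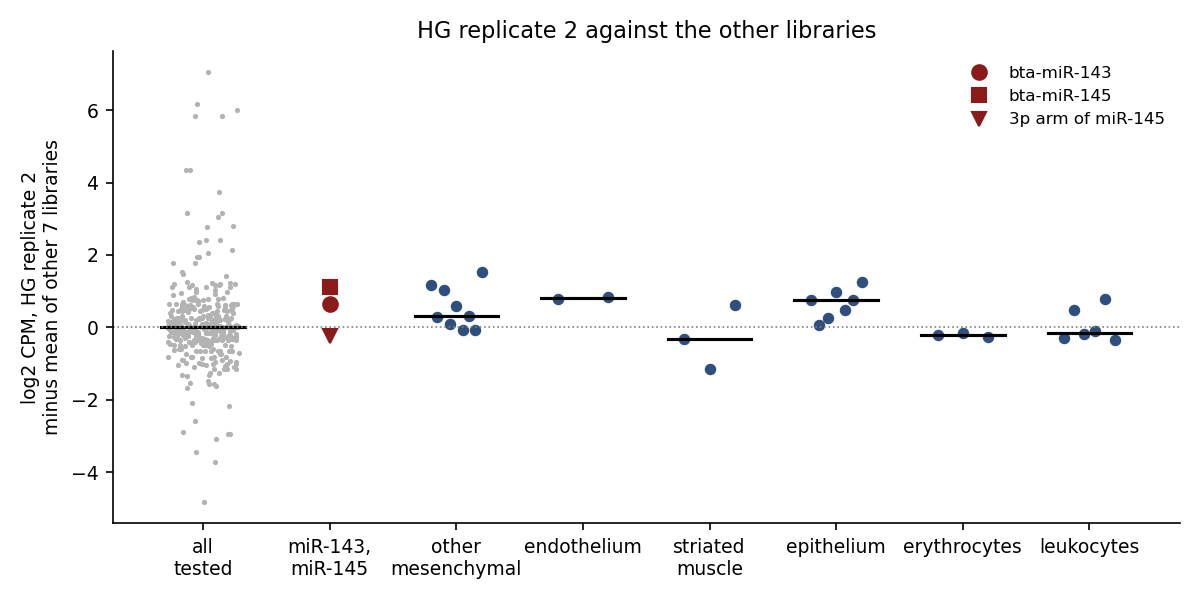
Log2 difference between HG replicate 2 and the mean of the other 7 libraries (TMM-scaled CPM plus 1) for the 377 tested entries (grey), for bta-miR-143, bta-miR-145 and the 3p arm of miR-145, and for the entries of 6 marker lists, with medians as lines. Bta-miR-145 lies at 1.12 and bta-miR-143 at 0.64, next to medians of 0.31 for the other mesenchymal, 0.81 for the endothelial, 0.76 for the epithelial, −0.32 for the striated muscle, −0.22 for the erythrocyte and −0.15 for the leukocyte entries.

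Between the diets, the medians of the log2 fold change were 0.08 for the other mesenchymal entries, 0.24 for the endothelial, 0.16 for the epithelial, −0.01 for the striated muscle, −0.08 for the erythrocyte and −0.05 for the leukocyte entries, next to 0.03 for all tested entries. Without the libraries of pair 2 all of these medians lay between −0.02 and 0.04, near the 0.00 of all tested entries.

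Among bovine entries with a mean of at least 100 reads per library, the 5 most like bta-miR-143 over the 8 libraries by Pearson correlation of log2 CPM were bta-miR-126-3p (r = 0.997), bta-miR-27a-3p (0.992), bta-miR-27b (0.989), bta-miR-26a (0.989) and bta-miR-99a-5p (0.987). Bta-miR-126-3p is a miRNA of endothelial cells. Much of this likeness rested on HG replicate 2. Of 129 entries, 41 reached r over 0.9 with bta-miR-143 when that library was included, and the median r was 0.54 with it and 0.12 without it. Without HG replicate 2, bta-miR-126-3p had r = 0.943 and bta-miR-99a-5p r = 0.908, the highest of the 129, whereas bta-miR-27b had 0.621. The levels of bta-miR-126-3p were 0.419% to 0.474% of the miRNA reads in these 7 libraries and 0.655% in HG replicate 2.

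For bta-miR-145 the 5 most alike were bta-miR-30e-5p (r = 0.986), bta-miR-221 (0.985), bta-miR-21-5p (0.983), bta-miR-205 (0.981) and bta-miR-499 (0.981). Without HG replicate 2, their correlations were 0.410, 0.483, 0.232, 0.218 and 0.340. Bta-miR-143 and bta-miR-145 correlated at 0.975 with each other over the 8 libraries and at 0.236 over the other 7. Over those 7 libraries bta-miR-143 varied by an SD of 2.77% of its mean and bta-miR-145 by 5.41% (shares of miRNA reads), while counting error alone was 3.41% to 4.51% of a library's value for bta-miR-145. At this depth the lower correlation does not show whether the partners varied together outside HG replicate 2. These correlations are descriptions over libraries that share cows, for entries that share the total reads of each library, and carry no p.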

How the data were processed

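Small RNA of 8 rumen fluid samples was sequenced. The authors demultiplexed the reads with bcl2fastq, trimmed adapters with Skewer, discarded short and low-quality reads and mapped them with sRNAbench and Bowtie (genome UMD3.1, miRBase entries for cattle and human). The deposited tables give read counts per mature miRNA, in which a read that fits more than 1 entry adds a whole read to every one of them, and the number of distinct read sequences as a count. The authors' expected counts divide such reads among entries. The deposited RPM values and a score, RPM of miRNA reads, were used to recover the totals of each library, and divided reads of the listed entries made up 77.9% to 79.6% of the miRNA reads. The authors' table of values divided by size factors was not used.

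The diet test used edgeR 4.0.16 under R 4.3.3 on entries reaching 10 reads in any library (TMM, glmQLFit, glmQLFTest, replicate number + diet, Benjamini-Hochberg over all entries, threshold 0.05), and DESeq2 1.42.0 was an alternative, as were other scalings, no minimum, expected counts rounded to whole numbers, identical entries once, no replicate block and leaving out each number. Ratios were compared by swapping the diets within each pair in all 16 arrangements. A pseudocount of 1 CPM was used for correlations and for the differences of HG replicate 2. Python 3.11.15 was used for the other steps. The named entries were the 2 miRNAs, their hairpin's other entries, the 2 entries above and below each in abundance, the 5 most alike, and members of the 6 lists (at most 4 each, the most read). The miRNAs and lists were chosen with earlier results of these data known.

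Libraries of the same number were taken as pairs because the same 4 cows were sampled on both diets and the labels number the libraries alike, though they do not state that a number is a cow. Deviations of same-numbered libraries from their diet's mean correlated at 0.00, −0.06, 0.06 and 0.01 for numbers 1 to 4, and those of different numbers at −0.165 to 0.209, so the data do not show the pairing and it is an assumption. Depth was 300116 to 522804 miRNA reads per library.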

Additional observations from a re-analysis of the deposited data

Results flagged for a closer look

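In groups of 4 libraries, the gap between an extreme library and its nearest neighbour was compared with the range of the group (Dixon's criterion at 95%). Of 14 groups checked, 3 passed it, and chance alone passes about 1 in 20 separate groups, whereas these groups share reads. The share of bta-miR-145 in HG replicate 2 was 0.304% of the miRNA reads, far above the other HG libraries. The log2 ratio of bta-miR-145 to its 3p arm was 2.97 in HG replicate 2 and 1.49 to 1.67 in the other HG libraries. Bta-miR-143 had 169 distinct sequences in forage replicate 4, the forage library with the fewest miRNA reads (331864), and 195 to 200 in the other forage libraries. The first 2 of these rest on the same 1023 reads of bta-miR-145. HG replicate 2 did not pass for the share of bta-miR-143, where the gap was 0.786 of the range, or for the log2 ratio of bta-miR-143 to bta-miR-145, where it was 0.742.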

How the results depend on the processing

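The log2 fold change of bta-miR-143 kept its sign and missed the threshold in 12 of 12 alternatives (0.02 to 0.23, adjusted p 0.678 to 0.999), and leaving out 1 pair at a time gave 0.03 to 0.23. That of bta-miR-145 was −0.0407 to 0.37 with 1 pair left out, the lowest without pair 2, and −0.0501 with no replicate block and without HG replicate 2. With no replicate block it was 0.33 for bta-miR-145 and 0.20 for bta-miR-143 (edgeR adjusted p = 0.688 and 0.678), and no call changed. The ratio of bta-miR-143 to bta-miR-145 gave a log2 diet difference of −0.13 to 0.0599 with 1 pair left out, the highest without pair 2, and 0.0551 with no replicate block and without HG replicate 2 (exact permutation p = 0.429). The ratio of bta-miR-145 to its 3p arm gave −0.0449 (without pair 2) to 0.44, and −0.0653 in the same unblocked test without HG replicate 2 (exact permutation p = 0.486). The log2 fold change of the 3p arm, refitted after seeing the data, was −0.0764 to 0.0114 with 1 pair left out (the highest without pair 2) and 0.0328 with no replicate block and without HG replicate 2. Entries called for the diet were 0 in 11 of 12 alternatives and 2 without pair 2, neither of them a member of the cluster, so that the range with 1 pair left out was 0 to 2.

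The shares of bta-miR-143 on forage and HG were 1.04% and 0.857% of all reads, 7.47% and 8.01% of miRNA reads without the erythrocyte entries, and 7.48% and 8.27% of the divided reads. Those of bta-miR-145 were 0.0292% and 0.0248% of all reads, 0.206% and 0.239% without the erythrocyte entries, and 0.103% and 0.124% of the divided reads. The ratio to the 5p arm of miR-143 was planned but could not be computed. With 183 or fewer reads in 3 libraries, the 3p arm limits the precision of its ratio.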
